A study of Callithrix jacchus with 54 samples.

Results

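Extracellular matrix genes, 10 of the 14812 genes in the expression table, were followed while common marmoset embryonic stem cells (cjESCs) were induced toward primordial germ cell-like cells (PGCLCs). They were DCN (decorin), BGN (biglycan), ASPN (asporin), LUM (lumican), OLFML2B, HAPLN1, COMP, HAS2, CCDC80 and IGFBP7, and all 10 were found in the table. They were chosen by name for high values in BLSE at 96 h or in cjESCs in PESFA, with no numerical threshold, so their levels in those conditions and every difference that involves them are given as descriptions without a test. All 10 genes reached a log2(TPM + 1) value of 1.5 in at least 1 of the 54 libraries, which kept them among the 11197 genes tested. ASPN reached it only in cjESCs in PESFA and in pre-treated cjESCs, and the other 9 also did so elsewhere.

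RNA was sequenced from 27 conditions in 2 libraries each, all from the CMES40 line with BLIMP1-tdTomato and NANOS3-eGFP reporters. cjESCs were maintained on mouse feeder cells, pre-treatment was done on fibronectin and induction in low-binding wells. Levels are in TPM, an abundance of transcripts scaled by gene length and to a constant total per library. The libraries in DK20FA, BLSE, SOX17 + BLSE and SOX17 + LSE came from a line that also carries rtTA, tetO-BLIMP1, SOX17-GR and a DD-TFAP transgene, the number of which differs among libraries in the labels. The libraries in PESFA, the pre-treated cjESCs, all libraries with IWR1, the day 6 cells and the xenogeneic reconstituted ovaries (xrOvaries) came from the line without these transgenes. BLSE holds BMP4, LIF, SCF, EGF and a Rock inhibitor, and LSE lacks BMP4. SOX17 was switched on with dexamethasone, which per the methods is added to enforce transgenes, pre-treatment was 24 h with activin A and IM12, a GSK3 inhibitor, IWR1 inhibits WNT signaling and BMS493 (BMS in the condition names) is an inverse agonist of the retinoic acid receptors. Induction was sampled at 12, 24, 48 and 96 h. cjESCs and pre-treated cells were sorted for a surface marker of pluripotent cells, cells at 12, 24 and 48 h and BLSE cells at 96 h were taken unsorted, and the other cells at 96 h, those at day 6 and those in xrOvaries at days 20, 40 and 70 were sorted for tdTomato. The xrOvaries were aggregates of day 6 cells with fetal mouse gonadal somatic cells. All conditions derive from 1 embryonic stem cell line, so the replicates do not cover differences between animals.

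Replicate libraries correlated at 0.977 to 0.994 across genes, no library was a copy of another, and 10146 to 12688 genes were above 0 per library. The lowest correlation was that of xrOvaries at day 20, where 10146 and 11441 genes were above 0, against at least 11625 in every other condition. The number of reads behind a TPM value is unknown. Among the 6 pluripotency markers, 6 were above 1 TPM in both cjESC conditions, and 7 of 7 germ cell markers were so in SOX17 + BLSE at 96 h. The germ cell list includes SOX17, which was enforced there, and PRDM1 (BLIMP1), by whose reporter the cells were sorted. In BLSE at 96 h 6 of the 7 were also above 1 TPM, and in both cjESC conditions 5 were. All 6 pluripotency markers were above 1 TPM in BLSE at 48 h too, so this level does not tell the conditions apart.

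Small leucine-rich proteoglycans such as decorin, biglycan, asporin and lumican sit on collagen fibrils, where they set fibril spacing, and decorin and biglycan carry chondroitin or dermatan sulfate chains and bind TGF-beta. Hyaluronan, the other large matrix polymer here, is made at the cell membrane by synthases such as HAS2 and is locked to proteoglycans by link proteins such as HAPLN1. COMP is a thrombospondin of cartilage, OLFML2B a secreted olfactomedin-domain protein, CCDC80 a secreted matrix protein and IGFBP7 a secreted protein that binds insulin-like growth factors. These genes are best known from fibroblasts, cartilage and vessel walls, whereas in early embryos extraembryonic and nascent mesoderm also make matrix. HAS2 encodes an enzyme and not a matrix protein.

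The 10 genes did not share 1 pattern. DCN, LUM, OLFML2B, HAPLN1 and CCDC80 had their highest mean in BLSE at 96 h. BGN was highest in PESFA, and ASPN and IGFBP7 in pre-treated cjESCs. COMP was highest in SOX17 + BLSE at 96 h and HAS2 in BLSE + IWR1 + BMS at 48 h. ASPN was listed at 0 in 40 of 54 libraries, while CCDC80 and IGFBP7 were above 0 in every library.

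**Figure D1:**
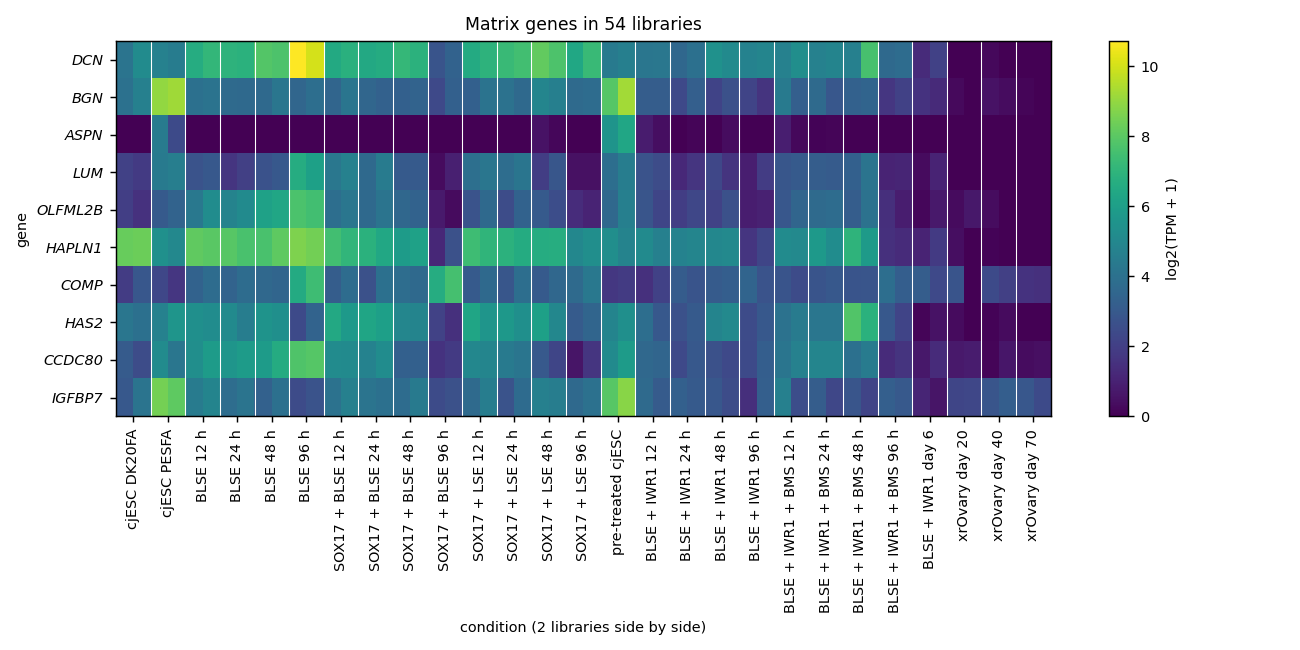
Levels of the 10 genes as log2(TPM + 1), color-coded, with genes in rows and the 54 libraries in columns, the 2 libraries of a condition side by side. DCN is brightest in BLSE at 96 h, BGN and IGFBP7 in PESFA and pre-treated cjESCs, and ASPN is dark outside the latter conditions.

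DCN was at 16.4 and 35.3 TPM in cjESCs in DK20FA, at 100 and 135 TPM after 12 h in BLSE, at 122 and 115 TPM after 24 h, at 229 and 210 TPM after 48 h and at 1703 and 1054 TPM after 96 h. Both libraries at 96 h lay above every other library of the study, the next condition being SOX17 + LSE at 48 h with 286 and 211 TPM. The 96 h mean was 1378 ± 459 TPM (SD, n = 2), 53.4-fold above DK20FA on the log2(TPM + 1) scale, which understates folds of low genes. In PESFA, where other members were high, DCN was at 25.6 and 21.5 TPM and overlapped DK20FA.

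LUM, which lies next to DCN in the RefSeq gene order of assembly calJac240_pri, was high at 96 h without the earlier increase of DCN. It was at 3.27 and 2.51 TPM in DK20FA, 5.61 and 6.71 TPM at 48 h in BLSE and 98.1 and 68.5 TPM at 96 h. Values of 20.4 and 23.3 TPM were measured in PESFA, so LUM differed from DCN there. The next genes on the same side, KERA and EPYC, which encode further small leucine-rich proteoglycans, did not exceed 0.61 and 0.32 TPM in any library.

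BGN was at 506 and 582 TPM in PESFA and at 242 and 606 TPM in pre-treated cjESCs. The ranges of these conditions overlapped each other and no other condition. In DK20FA it was at 15.0 and 24.3 TPM, 27.1-fold lower than in PESFA, and at 12 h of BLSE + IWR1, which follows the pre-treatment, at 8.05 and 8.01 TPM. BGN was at 10.5 and 13.7 TPM in BLSE at 96 h, where DCN had its peak.

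ASPN was at 21.3 and 4.36 TPM in PESFA and at 45.6 and 80.2 TPM in pre-treated cjESCs. Outside these 4 libraries it did not exceed 0.86 TPM. It was listed at 0 in both DK20FA libraries and at every time of the BLSE and SOX17 + BLSE courses. Its neighbors in the same gene order, ECM2 and OMD, were listed at 0 in every library, and OGN reached 2.94 TPM.

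**Figure D2:**
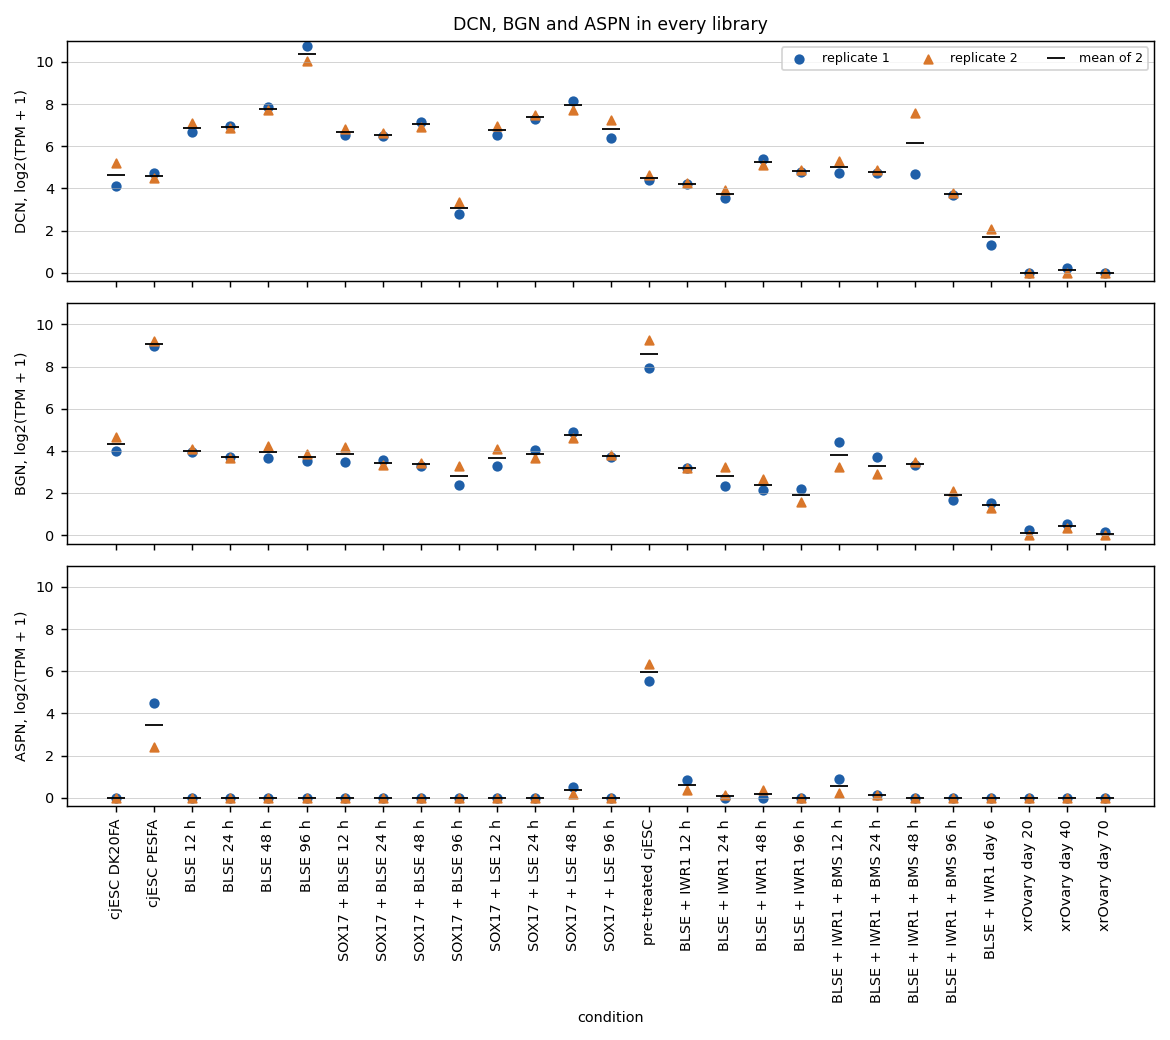
DCN, BGN and ASPN as log2(TPM + 1) in the 27 conditions, with circles for replicate 1, triangles for replicate 2 and bars for the mean of 2. DCN peaks in BLSE at 96 h, whereas BGN and ASPN stand apart in PESFA and pre-treated cjESCs.

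OLFML2B and CCDC80 followed a course like that of DCN. OLFML2B was at 2.99 and 1.90 TPM in DK20FA, at 69.4 and 81.1 TPM at 48 h in BLSE and at 206 and 180 TPM at 96 h. CCDC80 was at 7.51 and 4.70 TPM, 59.1 and 97.5 TPM, and 217 and 242 TPM in the same conditions. For both genes the 96 h libraries did not overlap the next condition, which was BLSE at 48 h.

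HAPLN1 was high before induction, at 298 and 316 TPM in DK20FA, and stayed between 198 and 279 TPM at 12 to 48 h in BLSE before reaching 402 and 349 TPM at 96 h. In PESFA it was at 40.6 and 31.4 TPM, 8.38-fold lower than in DK20FA, the opposite order to BGN. HAS2 went the other way at 96 h in BLSE, from 45.0 and 39.2 TPM at 48 h to 4.29 and 9.73 TPM. VCAN, which encodes the hyaluronan-binding proteoglycan versican and follows HAPLN1 in the RefSeq order, had a mean of 83.0 TPM in BLSE at 96 h and of 7.14 TPM in DK20FA.

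COMP was at 93.9 and 170 TPM in BLSE at 96 h and at 99.6 and 186 TPM in SOX17 + BLSE at 96 h. Outside these 2 conditions its highest mean was 15.5 TPM, in SOX17 + LSE at 96 h. IGFBP7 was at 358 and 266 TPM in PESFA and at 244 and 455 TPM in pre-treated cjESCs, against 6.79 and 16.7 TPM in DK20FA and 4.52 and 5.68 TPM in BLSE at 96 h. The COMP libraries of BLSE and SOX17 + BLSE thus overlapped at 96 h, and IGFBP7, like BGN, was high in PESFA and pre-treated cjESCs.

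More than 4-fold higher than in DK20FA were 5 of the 10 genes in BLSE at 96 h and 4 in PESFA, whereas 2.98% and 1.77% of the genes tested were. These shares describe how the genes were chosen. Between BLSE at 48 and 96 h, 3 of the 10 were more than 4-fold higher (DCN, LUM and COMP) and 1 more than 4-fold lower (HAS2), against 0.634% and 0.848% of all genes tested.

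Markers of fibroblasts moved with BGN, IGFBP7 and ASPN. Of 18 fibroblast markers listed, 16 were in the table, and 15 of these were higher in both PESFA libraries than in both DK20FA libraries, against 23.4% of the genes tested. All 16 were above 1 TPM in both PESFA libraries. COL1A1, a chain of type I collagen, was at 878 to 1598 TPM in PESFA and 41.8 to 83.6 TPM in DK20FA, and DPT, which encodes dermatopontin, was at 12.0 to 25.8 TPM and listed at 0. The exception was FBLN1, which was lower in PESFA.

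The summed fibroblast markers were at 3456 to 4872 TPM in PESFA, 3695 to 6552 TPM in pre-treated cjESCs, 1545 to 2092 TPM in DK20FA and 921 to 1158 TPM at 12 h of BLSE + IWR1. The 15 markers other than FBLN1 were also higher in both pre-treated libraries than in both libraries at 12 h of BLSE + IWR1, where 23.7% of the genes tested were. Pluripotency markers summed to 6494 to 6853 TPM in PESFA and 5791 to 6774 TPM in DK20FA. Of 9 mesoderm markers 8 were lower and 1 higher in both PESFA libraries than in both DK20FA libraries, against 34.1% and 23.4% of the genes tested. The mesoderm markers summed to 125 to 171 TPM in PESFA and 871 to 1050 TPM in DK20FA. Their part in the lower HAPLN1 level of PESFA was not tested. The part of fibroblast RNA in the levels of BGN, IGFBP7 and ASPN was not tested. These cells were sorted for the surface marker, a step the methods use to separate cjESCs from feeder cells, and whether reads of mouse feeder RNA were counted for marmoset genes was not tested. In these bulk libraries fewer cells of a type and less RNA per cell cannot be told apart. Medium and line differed together between PESFA and DK20FA and cannot be told apart.

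Beside the DCN levels of BLSE, 8 of the 16 fibroblast markers were higher in both libraries at 96 h than in both at 48 h and 5 were lower in both, against 21.1% and 34.9% of the genes tested. Their part in the level of DCN was not tested. In BLSE at 96 h their sum was 2847 to 2931 TPM, against 2897 to 2996 TPM at 48 h, COL1A1 was at 9.34 to 10.4 TPM, and DPT and PRRX1 were listed at 0 in both libraries. FBN1 was at 109 to 122 TPM and PDGFRA at 88.2 to 104 TPM, both above the 48 h libraries. FAP and TWIST2 were not used here, and no library is called stromal.

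**Figure D3:**
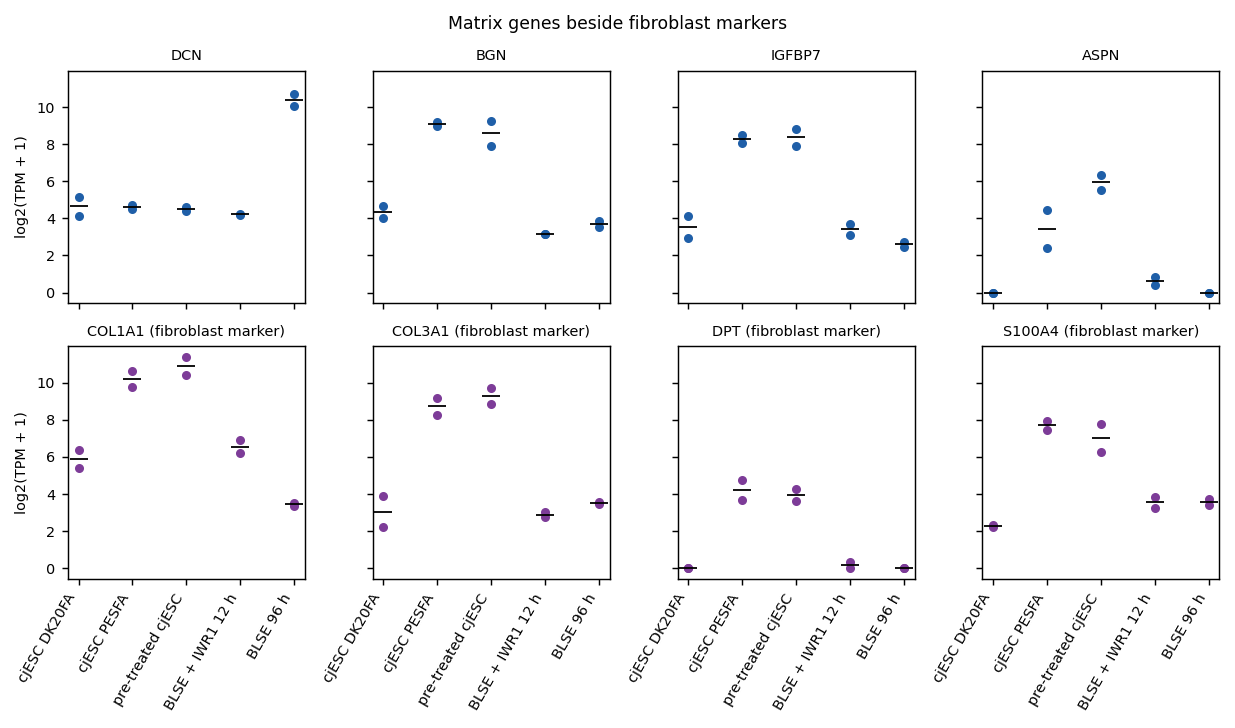
DCN, BGN, IGFBP7 and ASPN (blue) and 4 fibroblast markers (purple) as log2(TPM + 1) in 5 conditions, with 1 point per library and a bar for the mean of 2. COL1A1, COL3A1, DPT and S100A4 are high in PESFA and pre-treated cjESCs, as BGN, IGFBP7 and ASPN are, and DCN is high only in BLSE at 96 h among these 5 conditions. The 4 markers were picked from 16 after values were seen and do not stand for the list. Of the 16, 8 were higher and 5 lower in both libraries of BLSE at 96 h than in both at 48 h. Of the genes tested, 21.1% and 34.9% were.

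The effect of SOX17 in the presence of BMP4 was asked by comparing SOX17 + BLSE with BLSE, both unsorted and of the same line. SOX17 and the dexamethasone that switches it on cannot be told apart here. At 12 h, LUM was at 18.4 and 25.4 TPM with SOX17 and at 5.64 and 6.77 TPM without it. It rose by 1.65 ± 0.33 (SE) on the log2 scale (limma, adjusted p = 0.0015) and was the only one of the 10 genes past an adjusted p of 0.01, where 1.61% of the genes tested were called higher. The call was lost without either BLSE library or without replicate 2 of SOX17 + BLSE, at 1.54, 1.77 and 1.43 with adjusted p of 0.033, 0.015 and 0.052.

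By 48 h the order was different. OLFML2B was at 11.1 and 9.47 TPM with SOX17 and at 69.4 and 81.1 TPM without it. CCDC80 was at 8.68 and 8.78 TPM with SOX17 against 59.1 and 97.5 TPM, and HAPLN1 at 58.1 and 69.0 TPM against 201 and 266 TPM. These 3 genes fell and 0 rose, where 6.37% of the genes tested were called lower and 10.3% higher. The 10 genes were chosen partly for high levels later in the BLSE course, so this count is not independent of the choice.

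The falls at 48 h were 2.98 ± 0.34 for CCDC80 (adjusted p = 1.4e-08), 2.75 ± 0.35 for OLFML2B (adjusted p = 1.7e-07) and 1.85 ± 0.32 for HAPLN1 (adjusted p = 2.3e-05) on the log2 scale. All 3 calls held without any 1 of the 4 libraries. DCN was at 143 and 119 TPM against 229 and 210 TPM, which do not overlap, yet its difference of -0.74 (95% interval -1.64 to 0.15) did not pass (adjusted p = 0.24). LUM, higher with SOX17 at 12 h, was at 7.30 and 7.11 TPM against 5.61 and 6.71 TPM.

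Marker lists moved with SOX17 at 48 h as well, where 10.3% of the genes tested were called higher and 6.37% lower. Of 7 germ cell markers 6 rose and 0 fell, and their sum was 1745 to 1747 TPM with SOX17 and 404 to 428 TPM without it. The list includes SOX17 itself, the gene switched on here, so the count and the sum are not independent of the treatment. Of 6 pluripotency markers 4 rose and 1 fell, of 15 fibroblast markers 2 rose and 3 fell, and of 9 mesoderm markers 2 rose and 2 fell. Of 4 smooth muscle and 6 endothelial markers 0 rose and 2 of each fell. Of 6 gonadal somatic markers tested 1 rose and 0 fell, and FST, which encodes follistatin, was at 196 to 231 TPM with SOX17 and at 14.0 to 21.1 TPM without it. The part of these cell types in the falls of OLFML2B, CCDC80 and HAPLN1 was not tested.

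The change of the SOX17 effect from 12 to 48 h was tested by an interaction. CCDC80 passed, with a difference of -2.54 ± 0.48 (adjusted p = 7.7e-04), where 0.902% of the genes tested were called lower. OLFML2B had -2.04 ± 0.50 and an adjusted p of 0.0101. For LUM the difference was -1.45 (95% interval -2.41 to -0.50, adjusted p = 0.065). CCDC80 lost its call without replicate 1 of BLSE at 12 h (-2.25, adjusted p = 0.013) or replicate 2 of BLSE at 48 h (-2.18, adjusted p = 0.015).

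Within the courses from 12 to 48 h, OLFML2B rose in BLSE from 18.7 and 35.9 TPM to 69.4 and 81.1 TPM, by 1.5 ± 0.35 (adjusted p = 0.0043, with 2.14% of the genes tested called higher). No other of the 10 genes was called there. In SOX17 + BLSE, LUM, HAPLN1 and CCDC80 fell by 1.46, 1.25 and 1.89 (adjusted p = 0.0015, 0.0042 and 8.4e-05, with 4.21% of the genes tested called lower). The OLFML2B rise in BLSE lost its call without replicate 1 of BLSE at 12 h (1.04, adjusted p = 0.18) or either library at 48 h (1.61 and 1.39, adjusted p = 0.024 and 0.065). In SOX17 + BLSE, CCDC80 was called whichever library was left out, while LUM lost its call without replicate 2 at 12 h or either library at 48 h (adjusted p = 0.016 to 0.039) and HAPLN1 without replicate 1 at 12 h or either library at 48 h (adjusted p = 0.017 to 0.083).

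At 96 h the SOX17 + BLSE cells, sorted for tdTomato, had DCN at 6.01 and 9.37 TPM, LUM at 0.26 and 0.94 TPM, OLFML2B at 0.71 and 0.26 TPM, HAPLN1 at 1.29 and 5.37 TPM and CCDC80 at 1.94 and 2.56 TPM. These 5 of the 10 genes were more than 4-fold lower than in the unsorted BLSE cells, as were 4.18% of the genes tested. The folds ran from 53.1 for LUM to 157 for DCN, and the sort differs between these conditions. COMP was the exception among the genes high in BLSE at 96 h, with a fold of 1.08.

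**Figure D4:**
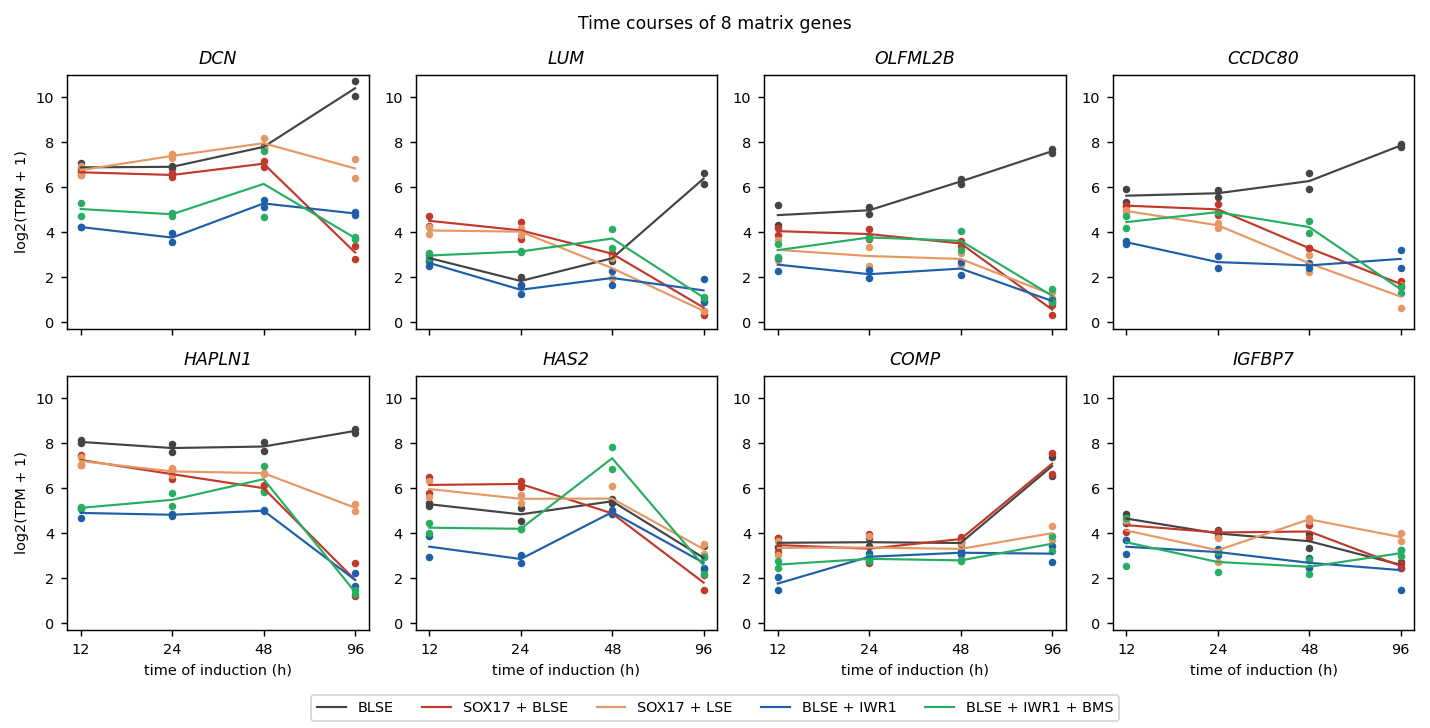
Levels of 8 genes as log2(TPM + 1) against time of induction (12, 24, 48 and 96 h, evenly spaced), with points for libraries and lines for the mean of 2, colored by condition. At 96 h DCN, LUM, OLFML2B, CCDC80 and HAPLN1 are high in BLSE and lower in the other 4 conditions, whereas COMP is high in BLSE and SOX17 + BLSE. At 96 h only the BLSE cells were unsorted.

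The effect of BMP4 with SOX17 was asked by comparing SOX17 + BLSE with SOX17 + LSE. At 96 h, where both were sorted for tdTomato, COMP was at 99.6 and 186 TPM with BMP4 and at 12.1 and 18.8 TPM without it. DCN was at 6.01 and 9.37 TPM against 83.1 and 152 TPM. HAPLN1 was at 1.29 and 5.37 TPM against 30.4 and 38.6 TPM. COMP rose by 3.09 ± 0.51 (adjusted p = 4.4e-05), and DCN and HAPLN1 fell by 3.73 ± 0.44 and 3.21 ± 0.32 (adjusted p = 1.3e-07 and 3.2e-09).

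HAS2 also fell, by 1.49 ± 0.37 (adjusted p = 0.0056), to 3.38 and 1.82 TPM from 7.49 and 10.4 TPM. In all, 1 of the 10 genes rose and 3 fell, with 2.55% and 4.55% of the genes tested called higher and lower. The HAS2 call was lost without replicate 2 of SOX17 + BLSE (-1.17, adjusted p = 0.11) or either SOX17 + LSE library (-1.70 and -1.27, adjusted p = 0.015 and 0.090).

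At 48 h, BGN was at 8.82 and 9.76 TPM with BMP4 and at 29.0 and 23.8 TPM without it, and no other gene of the 10 was called. It fell by 1.41 ± 0.37 (adjusted p = 0.0077, with 3.4% of the genes tested called lower), and the call was lost without any 1 of the 4 libraries (-1.27 to -1.54, adjusted p = 0.030 to 0.087). DCN was at 143 and 119 TPM against 286 and 211 TPM, a difference of -0.91 (adjusted p = 0.20). SOX17 + LSE at 48 h was also where ASPN was listed above 0 without IWR1 during induction, at 0.45 and 0.13 TPM.

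The cells induced with BLSE + IWR1 were compared with those in BLSE at the same times. These conditions differ in IWR1, pre-treatment, maintenance medium and line, which cannot be told apart. At 12 h, HAPLN1 was at 33.9 and 24.9 TPM against 279 and 255 TPM, and DCN at 17.5 and 17.9 TPM against 100 and 135 TPM. Of the 10 genes, 6 were lower (DCN, OLFML2B, HAPLN1, COMP, HAS2 and CCDC80) and 0 higher, with 7.92% of the genes tested called lower and 5.88% higher.

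Differences at 12 h ran from -3.16 ± 0.32 for HAPLN1 (adjusted p = 1.5e-09) to -1.81 ± 0.51 for COMP (adjusted p = 0.0087). BGN and IGFBP7, at 8.05 and 8.01 TPM and at 12.1 and 7.59 TPM, were not called lower (adjusted p = 0.11 and 0.065). Without replicate 2 of BLSE + IWR1, HAS2 was not called (-1.41, adjusted p = 0.029), and COMP was not called without any 1 of the 4 libraries (adjusted p = 0.021 to 0.098).

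At 48 h, OLFML2B was at 3.28 and 5.30 TPM against 69.4 and 81.1 TPM in BLSE, CCDC80 at 5.26 and 4.24 TPM against 59.1 and 97.5 TPM, and DCN at 41.6 and 34.0 TPM against 229 and 210 TPM. DCN, BGN, OLFML2B, HAPLN1 and CCDC80 were called lower and 0 genes higher, with 10% of the genes tested called lower and 11.2% higher. As with SOX17 at 48 h, the count is not independent of how the genes were chosen. OLFML2B and CCDC80 had differences of -3.87 ± 0.35 and -3.75 ± 0.34 (adjusted p = 1.2e-10 and 8.1e-11). BGN, at 3.41 and 5.30 TPM against 11.8 and 17.5 TPM, had -1.54 ± 0.37 (adjusted p = 0.0014), and its call was lost without replicate 2 of BLSE (-1.27, adjusted p = 0.043) or replicate 1 of BLSE + IWR1 (-1.29, adjusted p = 0.032).

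Marker lists were followed between these conditions too. Of all genes tested, 7.92% were called lower and 5.88% higher at 12 h, and 10% and 11.2% at 48 h. At 12 h, 6 of 15 fibroblast markers were called lower and 2 higher, 5 of 9 mesoderm markers lower and 0 higher, and 6 of 6 pluripotency markers higher. At 48 h, 5 of 15 fibroblast markers were lower and 2 higher, 3 of 6 endothelial markers lower and 1 higher, 2 of 4 smooth muscle markers lower and 0 higher, and 5 of 6 pluripotency markers higher and 0 lower. Mesoderm markers at 48 h were 3 higher and 3 lower of 9, germ cell markers 3 higher and 2 lower of 7, and of 6 gonadal somatic markers 0 were called. The fibroblast markers summed to 921 to 1158 TPM in BLSE + IWR1 and 2150 to 2361 TPM in BLSE at 12 h, and to 2041 to 2599 TPM and 2897 to 2996 TPM at 48 h. The part of these cell types in the lower levels of the matrix genes was not tested.

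HAS2 was the 1 gene of the 10 that rose from 12 to 48 h in BLSE + IWR1, from 13.8 and 6.66 TPM to 27.9 and 31.7 TPM. It rose by 1.53 ± 0.37 (adjusted p = 0.0048, with 4.02% of the genes tested called higher). The call was lost without replicate 2 at 12 h (1.06, adjusted p = 0.17) or either library at 48 h (1.62 and 1.44, adjusted p = 0.015 and 0.040).

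BMS493 was added to BLSE + IWR1 to ask about retinoic acid signaling, and here line, pre-treatment and sort were the same. At 48 h, HAS2 was at 227 and 114 TPM with BMS493 and at 27.9 and 31.7 TPM without it. LUM was at 8.79 and 16.6 TPM against 3.89 and 2.09 TPM, CCDC80 at 14.5 and 21.4 TPM against 5.26 and 4.24 TPM, and HAPLN1 at 125 and 56.5 TPM against 30.5 and 31.9 TPM. These 4 genes rose and 0 fell, with 2.87% of the genes tested called higher and 1.96% lower.

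The rise of HAS2 was 2.40 ± 0.37 (adjusted p = 4.5e-05), those of LUM and CCDC80 were 1.75 ± 0.33 and 1.70 ± 0.34 (adjusted p = 5.6e-04 and 8.5e-04), and that of HAPLN1 was 1.40 ± 0.32 (adjusted p = 0.0031). HAS2 was called whichever of the 4 libraries was left out. Without replicate 1 of the BMS493 libraries HAPLN1 was at 0.84 (adjusted p = 0.18). Without replicate 2 of them LUM and CCDC80 were at 1.33 and 1.44 (adjusted p = 0.034 and 0.028).

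HAPLN1 also lost its call without either library without BMS493 (1.37 and 1.43, adjusted p = 0.023 and 0.011), and LUM without replicate 2 of these (1.42, adjusted p = 0.013). DCN was at 24.7 TPM in replicate 1 with BMS493 and at 193 TPM in replicate 2, on either side of the 41.6 and 34.0 TPM without it. Its difference of 0.87 (95% interval -0.03 to 1.76) was not called (adjusted p = 0.20), and without replicate 1 it was called, at 2.33. For OLFML2B, at 8.10 and 15.4 TPM against 3.28 and 5.30 TPM, the adjusted p was 0.020.

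Marker lists moved at 48 h with BMS493 too, where 2.87% of all genes tested were called higher and 1.96% lower. Of 9 mesoderm markers tested 3 rose, of 6 endothelial markers 3 rose, of 15 fibroblast markers 3 rose and of 6 pluripotency markers 4 fell. Of 7 germ cell markers 2 rose and 1 fell, and of 4 smooth muscle and 6 gonadal somatic markers 0 were called. The mesoderm markers summed to 2455 to 2527 TPM with BMS493 and 1690 to 1790 TPM without it, and the pluripotency markers to 3960 to 4322 TPM and 6330 to 7535 TPM. The part of these cell types in the rise of HAS2, LUM, CCDC80 and HAPLN1 was not tested.

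At 12 h none of the 10 genes was called with BMS493 by limma, and 2 had an unadjusted p under 0.05, in a comparison where 0% of the genes tested were called. At 96 h none was called either, with 2 under an unadjusted p of 0.05 and 0.732% of the genes tested called. HAS2 at 96 h was at 6.70 and 3.61 TPM with BMS493 and at 4.45 and 6.69 TPM without it. The change of the BMS493 effect from 12 to 48 h was called for none of the 10, with 3 under an unadjusted p of 0.05 and 0.0893% of the genes tested called. For HAS2 that difference was 1.55 (95% interval 0.48 to 2.63, adjusted p = 0.26).

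**Figure D5:**
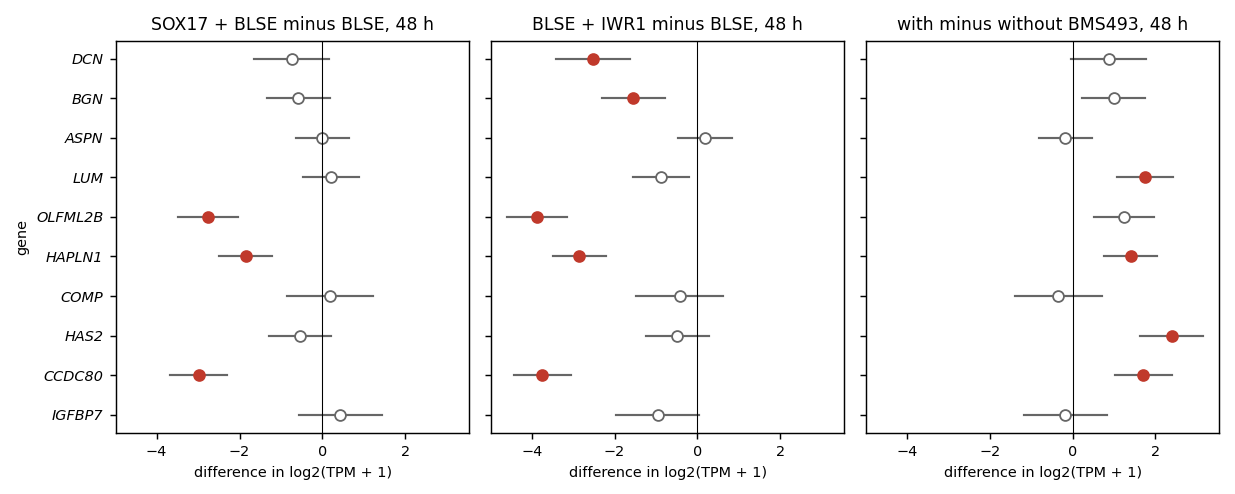
Differences in log2(TPM + 1) at 48 h for the 10 genes with SOX17 (left), in the IWR1 condition (middle) and with BMS493 (right), with 95% intervals of the limma fit and filled points for an adjusted p under 0.01. OLFML2B, HAPLN1 and CCDC80 are lower in the left and middle panels, and HAS2, LUM, CCDC80 and HAPLN1 are higher on the right. The left and middle panels share the BLSE libraries and the middle and right panels the BLSE + IWR1 libraries.

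Matrix pathways beyond the 10 genes were followed in 7 lists, with the 10 genes counted where they belong. The counts with SOX17 at 48 h stand beside 10.3% of all genes tested called higher and 6.37% lower. With SOX17 at 48 h, 0 of 10 small leucine-rich proteoglycans rose and 1 fell, FMOD (fibromodulin), by 1.60 ± 0.35 to a mean of 1.23 TPM. Of 12 hyaluronan genes 2 rose, ACAN (aggrecan) by 1.27 ± 0.27 and VCAN by 1.15 ± 0.32, and 1 fell, HAPLN1, already described. Of 18 matricellular genes 2 rose, with MATN2 (matrilin) at 2.35 ± 0.28 the larger, and 2 fell, with CCN2 at -1.48 ± 0.38 the larger.

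Of 12 genes for chondroitin and dermatan sulfate synthesis 0 rose and 3 fell with SOX17, and the sulfotransferase CHST11 fell by 1.87 ± 0.24 and the xylosyltransferase XYLT2 fell by 1.06 ± 0.20. Of 11 TGF-beta pathway genes 1 rose and 2 fell, and TGFBI, a known target of TGF-beta, fell by 2.29 ± 0.27. Of 6 olfactomedin genes 1 rose (OLFM2, 0.62 ± 0.12) and 1 fell, OLFML2B, already described. Of 6 insulin-like growth factor binding protein genes 1 fell (IGFBP4, by 1.06 ± 0.14). The medians of the 7 lists lay between -0.35 and 0.31, and that of all genes at 0.10.

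In the IWR1 condition at 48 h, where 10% of all genes tested were called lower and 11.2% higher, 3 of 10 proteoglycan genes were lower and 1 higher, 5 of 12 hyaluronan genes lower and 1 higher, and 4 of 18 matricellular genes lower and 2 higher. Of 12 genes for chondroitin and dermatan sulfate synthesis 4 were lower and 0 higher, and of 11 TGF-beta pathway genes 3 were lower and 0 higher. Of 6 olfactomedin genes 3 were lower and 1 higher, and of 6 insulin-like growth factor binding protein genes 1 was lower and 1 higher. DCN, BGN, HAPLN1 and OLFML2B, already described, are counted among the lower genes of their lists. OPTC (opticin) rose by 2.82 ± 0.45 and PRELP fell by 1.54 ± 0.36. VCAN fell by 1.62 ± 0.32, SPARC fell by 1.55 ± 0.11, OLFML3 fell by 2.08 ± 0.30, CHST3 fell by 2.36 ± 0.30 and TGFBI fell by 3.18 ± 0.27. The list medians lay between -0.47 and -0.09, with 0.03 for all genes.

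With BMS493 at 48 h, 2.87% of all genes tested were called higher and 1.96% lower. Of 10 proteoglycan genes 2 rose (LUM and PRELP, the latter by 1.41 ± 0.36) and 0 fell. Of 12 hyaluronan genes 3 rose (HAS2, HAPLN1 and VCAN, the latter by 1.64 ± 0.32) and 0 fell. LUM, HAS2 and HAPLN1 are among the genes already described. Of 18 matricellular genes 1 rose, SPARC by 0.74 ± 0.11, and of 6 olfactomedin genes 1 fell, OLFM2 by 0.49 ± 0.12. No gene of chondroitin and dermatan sulfate synthesis, of the TGF-beta list or of the insulin-like growth factor binding proteins was called.

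At 96 h, the cells from BLSE + IWR1 were compared with those from SOX17 + BLSE, both sorted for tdTomato but of different lines. COMP was at 9.95 and 5.70 TPM with IWR1 and at 99.6 and 186 TPM with SOX17, a difference of -4.0 ± 0.51 (adjusted p = 8.8e-07). DCN was at 26.2 and 28.6 TPM against 6.01 and 9.37 TPM, a rise of 1.73 ± 0.44 (adjusted p = 0.0070). These were the 2 genes called of the 10, with 2.04% and 4.05% of the genes tested called higher and lower. DCN lost its call without any 1 of the 4 libraries (adjusted p = 0.020 to 0.092).

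From 96 h to day 6 of BLSE + IWR1, 3 of the 10 genes were called lower. DCN went from 26.2 and 28.6 TPM to 1.52 and 3.27 TPM, HAS2 from 4.45 and 6.69 TPM to 0.11 and 0.45 TPM and CCDC80 from 4.32 and 8.21 TPM to 0.62 and 1.48 TPM. The falls were 3.11 ± 0.44, 2.35 ± 0.37 and 1.80 ± 0.34 (adjusted p = 1.9e-05, 9.0e-05 and 6.3e-04), and no other of the 10 was called, with 1.92% of the genes tested called lower. ASPN was listed at 0 at both times, LUM and OLFML2B were already at no more than 2.8 and 0.99 TPM at 96 h, and COMP was at 9.95 and 5.70 TPM and then at 8.04 and 4.15 TPM. CCDC80 lost its call without replicate 2 at 96 h (-1.41, adjusted p = 0.054) or replicate 1 at day 6 (-1.5, adjusted p = 0.043). IGFBP7, at 1.76 and 8.65 TPM at 96 h, was called lower only without replicate 1 at that time (-2.39).

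In xrOvaries at day 20, DCN and LUM were listed at 0 in both libraries, and BGN was at 0.20 TPM and listed at 0. These were the libraries with the fewest genes above 0 (10146 and 11441), which limits what a value of 0 there can show. DCN, BGN and HAPLN1 were called lower than at day 6 (adjusted p = 0.0027, 0.0074 and 0.0024, with 13.8% of the genes tested called lower), from levels of at most 3.27 TPM. DCN and HAPLN1 lost their calls without replicate 2 at day 6 (-1.33 and -0.87, adjusted p = 0.073 and 0.10), and BGN without any 1 of the 4 libraries (adjusted p = 0.019 to 0.074). DCN also lost its call without either day 20 library (adjusted p = 0.017 and 0.021), and HAPLN1 without replicate 2 at day 20 (adjusted p = 0.048).

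In xrOvaries IGFBP7 and COMP had the highest means of the 10 genes at each of the 3 times. IGFBP7 was at 1.19 and 0.54 TPM in day 6 cells, 3.74 and 3.81 TPM at day 20, 6.04 and 8.28 TPM at day 40 and 6.53 and 4.25 TPM at day 70. Its difference of 1.38 between day 20 and day 6 was not called (adjusted p = 0.032), and with a pseudocount of 0.1 it was called, at 2.09. COMP was at 5.84 TPM in replicate 1 and listed at 0 in replicate 2 at day 20, below CCDC80 and OLFML2B in that library, then at 4.39 and 3.15 TPM and at 1.99 and 1.78 TPM. From day 20 to 40 and from day 40 to 70 limma called none of the 10 genes, with 0 under an unadjusted p of 0.05 and 4.6% and 2.73% of the genes tested called. The genes other than IGFBP7 and COMP had means of at most 0.705 TPM at these times, where a fall can hardly be called. ASPN and LUM were listed at 0 in every xrOvary library. Without replicate 1 at day 20, COMP was called lower at day 20 than at day 6 (-2.77) and higher at day 40 than at day 20 (2.24).

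Likeness of pattern was measured by Pearson's r over the 27 condition means of log2(TPM + 1), which share libraries of 1 line and are described without a test. Among genes outside the 10, the closest to DCN were DNAJB11, CHST3 and COL4A2 (r = 0.946, 0.945 and 0.940), each with its highest mean in BLSE at 96 h. Those to BGN were RAB18, COL5A2 and COL1A1 (r = 0.910, 0.910 and 0.902). Those to ASPN were ADAMTS5, MFAP4 and LRRC17 (r = 0.992, 0.988 and 0.984), each with its highest mean in pre-treated cjESCs.

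Within the 10, OLFML2B and CCDC80 were most alike (r = 0.954), followed by DCN and HAPLN1 (r = 0.880), BGN and IGFBP7 and LUM and CCDC80 (both r = 0.879). Among the proteoglycan genes, BGN and ASPN had r = 0.756, DCN and LUM r = 0.735, BGN and LUM r = 0.652 and DCN and ASPN r = -0.06. ASPN and COMP had r = -0.31. These r run over the means in BLSE at 96 h and in PESFA, for which the 10 genes were chosen.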

How the data were processed

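Per the methods and the submitters' processing notes, single-end directional reads of poly(A) RNA were mapped by the authors with STAR to a marmoset assembly, alignments of mapping quality 1 or less were dropped, and RSEM was run on the rest; the authors deposited TPM for genes that marmoset shares with human. TPM carry no read totals, so no interval of counting error is given.

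These TPM were transformed to log2(TPM + 1). Genes at 1.5 or more in at least 1 library were kept. One mean per condition was fitted over 54 libraries with limma 3.58.1 in R 4.3.3 (27 residual degrees of freedom, intensity trend), with two-sided p adjusted by Benjamini-Hochberg over 11197 genes within each of 19 comparisons. A gene was called at an adjusted p under 0.01. With 2 libraries against 2 an exact permutation p cannot fall below 0.33. The labels call the libraries replicates and the methods biological duplicates. The labels link same-numbered replicates by number alone, and whether they shared a batch was not tested. Their deviations correlated at -0.25 to 0.21, the highest for SOX17 at 12 h.

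The 10 genes, the gene and marker lists and the comparisons were chosen with earlier results of these data known. Named genes were the 10, at most 2 others per list at 48 h with the largest changes past the threshold (1 is not reported here), and the 3 most alike in pattern to DCN, BGN and ASPN; marker genes, gene neighbors and VCAN levels were added after values were seen. All 10 symbols were matched in RefSeq, whose build differs from the authors', so no coordinates or sequences are given. Alternatives were another pseudocount, no filter, only the libraries compared, a replicate block, 2 scalings, no trend, added fold and level minima, and leaving out each library.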

Additional observations from a re-analysis of the deposited data

Results flagged for a closer look

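CCDC80, which encodes a secreted matrix protein, was singled out because the SOX17 effect on it differed between 12 and 48 h by a test of that difference. It was at 35.5 and 34.7 TPM with SOX17 and 39.0 and 59.0 TPM without it at 12 h, and at 8.68 and 8.78 TPM against 59.1 and 97.5 TPM at 48 h. The interaction was -2.54 ± 0.48 on the log2 scale (limma, adjusted p = 7.7e-04), with 2 libraries in each of 4 conditions.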

How the results depend on the processing

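The 38 calls of the 10 genes kept their direction under every alternative, and 0 were reversed. Fitting only the libraries compared, which leaves 2 residual degrees of freedom in most comparisons, ended 37 of the 38 calls: SOX17 at 48 h kept 1, and 0 remained in each other comparison. A pseudocount of 0.1 left 0 calls for SOX17 at 12 h, for the BLSE and BLSE + IWR1 courses, for BMP4 at 48 h and for the SOX17 interaction, 1 for the SOX17 + BLSE course and for IWR1 against SOX17 at 96 h, 2 for BMP4 at 96 h, and gave 6 for day 20 against day 6. Asking also for more than 4-fold and a mean log2 value above 1.5 left 0 for SOX17 at 12 h, for the 3 courses, for BMP4 at 48 h and for day 20, and 1 for BMS493 at 48 h and for IWR1 against SOX17 at 96 h. No filter and no intensity trend each left 0 for BMP4 at 48 h and 1 for IWR1 against SOX17. Quantile normalization and the replicate block each gave 2 for the SOX17 interaction, adding OLFML2B. The cause was not tested.

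The replicate block changed no other count. For the BLSE + IWR1 course, where same-numbered deviations correlated at -0.25, crossed numbers, a pairing chosen after seeing the data, gave 1 call, as without a block. Median-ratio scaling and quantile normalization moved the median of all genes by at most 0.0995 in size.

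Leaving out 1 library gave 0 to 1 calls for SOX17 at 12 h, for the BLSE course and for the BLSE + IWR1 course, 3 for SOX17 at 48 h, 1 to 2 for the SOX17 + BLSE course, 0 for BMP4 at 48 h, 3 to 4 for BMP4 at 96 h, 4 to 5 for IWR1 at 12 h and at 48 h, 2 to 4 for BMS493 at 48 h, 0 for BMS493 at 12 h and 96 h and for its interaction, 1 for IWR1 against SOX17, 2 to 4 for day 6, 0 to 2 for day 20, 0 to 1 for day 40, 0 for day 70 and 0 to 2 for the SOX17 interaction. A lone remaining library is assumed to vary like the other groups.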
